A study of Mus musculus with 9 samples.

Results

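The genes described here encode the PIM serine/threonine kinases (Pim1, Pim2, Pim3), the AKT kinases (Akt1, Akt2) and 3 proteins through which both families act on protein synthesis (Akt1s1, Eif4ebp1, Rps6kb1). They were taken by symbol from the probe sets of an Affymetrix Mouse Gene 2.0 ST array. Of the 8 genes, 7 have a probe set that names them alone, out of 22180 genes named in that way. Rps6kb1, the gene of the S6 kinase S6K1, has no such probe set and is not described. All 7 measured genes passed the filter on low values, which left 15526 genes to test.

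The arrays hold total RNA of cultured MYCCaP cells, a prostate cancer line of mouse origin. The line came from a mouse with a MYC transgene under a probasin promoter, which is active in prostate epithelium and driven by androgen. Cells labelled AZD1208 (n = 3 lines) came from mice that were given AZD1208, an inhibitor of the PIM kinases, and are labelled as without dihydrotestosterone (DHT), an androgen. Cells labelled Vehicle (n = 3 lines) came from mice that were given vehicle and carry the same label for DHT. The title places the tumours of both groups in castrated mice, as recurrent and resistant. Both are set against the parental MYCCaP line grown with DHT, whose 3 arrays are labelled technical replicates and were counted as 1 sample. Whether each recurrent line came from its own mouse, and whether the drug was in the culture medium, the sources used here do not say. Growth in a castrated mouse and the lack of DHT both separate the recurrent lines from the parental line and cannot be told apart.

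PIM kinases have no regulatory domain that must be switched on by an upstream kinase, so their activity follows the amount of protein, and transcription driven by cytokine signals through STAT factors is a main control. AKT kinases are made continuously and are switched on by PI3K signals at the membrane. The 2 families recognise similar sites and share substrates, among them PRAS40 (encoded by Akt1s1), an inhibitor of the kinase complex mTORC1. Active mTORC1 phosphorylates 4E-BP1 (Eif4ebp1), which then lets go of the cap-binding protein eIF4E, and S6K1, so that translation rises. In prostate cancer PIM1 is known to work together with MYC. The arrays measured RNA, so neither kinase activity nor phosphorylation was measured.

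The sequences before the gene starts of the 3 PIM genes are shown because these were the members whose values in all 6 recurrent lines lay under the parental mean. Each is the 250 bases that precede the start in RefSeq (GRCm38.p6, plus strand), with the GC box GGGCGG and the CCAAT box CCAAT in capitals on either strand. Pim1 lies at chr17:29490535-29490784, Pim2 at chrX:7878056-7878305 and Pim3 at chr15:88861944-88862193. RefSeq lists 2 starts for Pim1, and the first is shown.
Pim1: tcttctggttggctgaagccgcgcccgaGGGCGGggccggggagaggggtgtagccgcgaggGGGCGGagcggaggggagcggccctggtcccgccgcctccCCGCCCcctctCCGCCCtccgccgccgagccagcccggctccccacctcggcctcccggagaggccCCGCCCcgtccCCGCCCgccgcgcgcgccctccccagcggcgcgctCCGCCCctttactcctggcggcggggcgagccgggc
Pim2: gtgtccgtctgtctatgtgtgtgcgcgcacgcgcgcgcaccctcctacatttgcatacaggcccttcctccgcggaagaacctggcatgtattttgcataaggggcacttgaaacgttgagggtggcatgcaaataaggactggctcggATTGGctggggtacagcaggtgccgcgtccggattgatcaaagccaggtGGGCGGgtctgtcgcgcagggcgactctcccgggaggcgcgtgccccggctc
Pim3: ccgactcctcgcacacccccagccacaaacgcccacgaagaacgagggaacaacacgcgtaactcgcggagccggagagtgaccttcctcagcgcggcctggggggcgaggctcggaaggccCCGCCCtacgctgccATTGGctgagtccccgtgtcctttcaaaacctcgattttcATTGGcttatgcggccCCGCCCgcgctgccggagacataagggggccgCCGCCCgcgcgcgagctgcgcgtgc

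The Pim1 stretch was 82.4% G and C, against a median of 52.4% over the 32851 promoters in the table. It held 7 GC boxes and no CCAAT box. The Pim2 stretch was 62% G and C, with 1 GC box and 1 CCAAT box, and the Pim3 stretch 68%, with 3 GC boxes and 2 CCAAT boxes. These matches do not overlap each other. Of all promoters, 32.7% held a GC box and 33.8% a CCAAT box within the same length. None of the 3 stretches held the STAT motif TTCNNNGAA (7% of all promoters), the MYC E-box CACGTG (6%), the FOXO motif TGTTTAC (3.2%) or the TATA box TATAAA (12.4%). These windows are short, and the motifs were searched only in them.

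In the recurrent lines Pim1 and Pim3 were at lower values than in the parental line, 1.77-fold and 1.7-fold on average. All 6 lines lay below every parental array for both, as for 5.06% of all genes. A dimmer probe set of Pim1 differed by only -0.12, and the mean of its probe sets by -0.47. Pim2 and the genes of AKT, PRAS40 and 4E-BP1 differed by 0.21 or less on the log2 scale. Pim2 too was below the parental mean in all 6 lines, as were 10.8% of all genes. AZD1208 and vehicle lines overlapped for all 7 genes. Over all genes, only 1.41% lacked overlap with AZD1208 higher and 1.97% with AZD1208 lower. Of 18 FOXO target genes tested, 16 were at higher values in recurrent lines, where 45.5% of all genes were higher. AKT represses such genes, but AKT activity was not measured, and the list was chosen with earlier results of these data known. No difference of a single one of these genes passed the test with adjustment over all genes (limma, adjusted p = 1 for each member).

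Values below are log2 intensities, in which a difference of 1 is a 2-fold change, and each gene is compared only with itself. Array medians lay between 6.22 and 6.36. The interquartile range was 2.87 on the array of AZD1208 line 3 and 2.98 to 3.12 on the others. The median SD of a gene was 0.25 between AZD1208 lines, 0.19 between vehicle lines and 0.09 between the technical parental arrays. Of the epithelial markers, Epcam was removed by the filter on low values in this annotation (4.51 to 5.06 in recurrent lines, parental 4.99). Esrp1 was removed too (5.11 to 5.95 in recurrent lines, parental 5.35). Cldn3, a tight junction gene, was at 11.65 to 12.43 in recurrent lines, against 12.43 for parental cells. Krt8, a keratin of luminal cells, was at 8.24 to 10.44 in recurrent lines, against 9.19 for parental cells. Cdh1, at 6.45 to 6.96 in recurrent lines, and Krt18, at 6.47 to 6.91, were lower in signal. Both were below their parental mean in all 6 lines. The pan-leukocyte gene Ptprc was removed by the filter as well (4.49 to 5.12 in recurrent lines, parental 4.85).

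Pim1, the founding member of the family, was at 9.36, 9.81 and 9.40 in AZD1208 lines 1 to 3, at 8.87, 9.80 and 9.40 in vehicle lines 1 to 3, and at 10.41, 10.26 and 10.13 on the parental arrays. All 6 recurrent lines lay below every parental array, by 0.45 to 1.40 from the parental mean, and the AZD1208 and vehicle lines overlapped. Recurrent lines averaged 9.44 ± 0.35 (SD, n = 6) and parental arrays 10.27 ± 0.14 (technical SD). That is 1.77-fold lower (log2 difference -0.83, SE 0.35, 95% interval -1.64 to -0.02). The difference did not pass (limma, adjusted p = 1; unadjusted p = 0.0465). It was the most variable of the 3 PIM genes between recurrent lines, with an SD above that of 77.7% of the genes tested.

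A further probe set also names Pim1. It read 5.81 ± 0.32 in AZD1208 lines and 5.76 ± 0.06 in vehicle lines (SD, n = 3 each), with a parental mean of 5.91 and a technical SD of 0.09. Recurrent lines differed from the parental line by -0.12 on it, with 5 of 6 lines below. Its mean over the arrays was 5.825, close to 5.81, the lowest gene mean kept by the filter on low values. As the mean of both probe sets, the recurrent difference of Pim1 was -0.47. The sources used here do not say what part of the transcript each probe set reads.

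Pim3 was at 9.74, 9.38 and 9.79 in AZD1208 lines 1 to 3, at 9.62, 9.90 and 9.92 in vehicle lines 1 to 3, and at 10.55, 10.69 and 10.22 on the parental arrays. All 6 recurrent lines again lay below every parental array, and the lowest was AZD1208 line 2. Recurrent lines averaged 9.73 ± 0.20 (SD, n = 6) and parental arrays 10.49, which is 1.7-fold lower in recurrent lines (log2 difference -0.76, SE 0.23, 95% interval -1.31 to -0.22). The technical SD between parental arrays, 0.24, was larger than the SD between the recurrent lines. The difference did not pass (limma, adjusted p = 1; unadjusted p = 0.0126). With the parental arrays counted as 3 samples, which takes technical spread for biological spread, it did (limma, adjusted p = 0.0491).

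Pim2, the family member best known from lymphoid cells, was at 7.73, 7.99 and 7.92 in AZD1208 lines 1 to 3, at 7.65, 7.71 and 7.96 in vehicle lines 1 to 3, and at 8.12, 8.06 and 7.95 on the parental arrays. The lines were below the parental mean of 8.04, but only 4 of 6 were below every parental array. The difference was -0.21 (SE 0.21, 95% interval -0.71 to 0.28), 1.16-fold lower and about the size of its SE (limma, adjusted p = 1; unadjusted p = 0.342). Of the 6 gaps between neighbouring samples in the order of Pim2 values, 5 were smaller than the technical SD of 0.09.

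**Figure D1:**
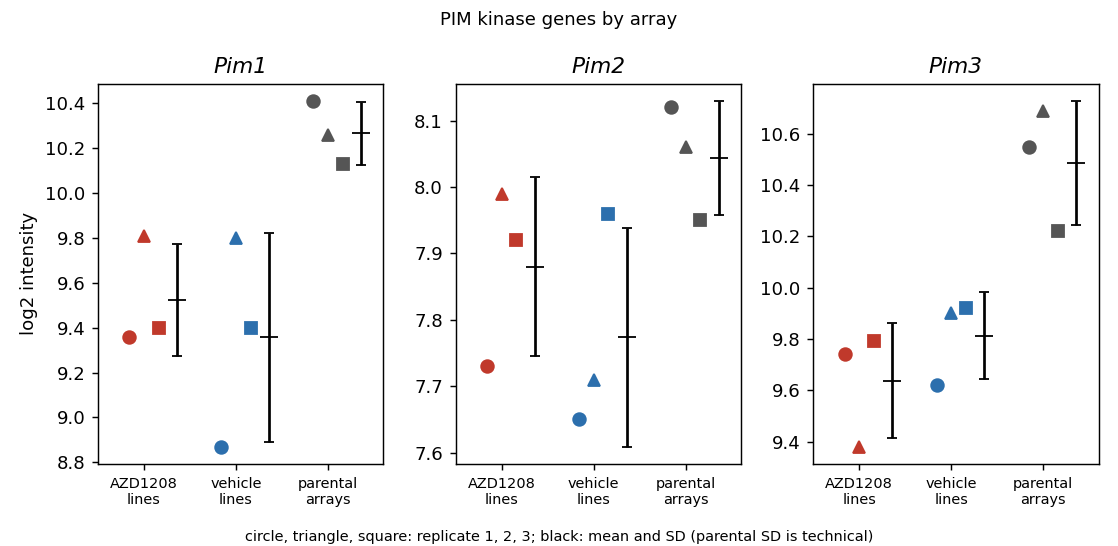
Log2 intensity of Pim1, Pim2 and Pim3 on each of the 9 arrays, with AZD1208 lines in red, vehicle lines in blue and parental arrays in grey, symbols for the replicate number, and the mean and SD in black (the parental SD is technical; the vertical axes differ between panels). For Pim1 and Pim3 all 6 lines sit below all 3 parental arrays, while for Pim2 AZD1208 line 2 (7.99) and vehicle line 3 (7.96) reach the parental range.

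The PIM genes did not share one order of lines. For Pim1 the lowest line was vehicle line 1 and the highest were AZD1208 line 2 and vehicle line 2, which differed by less than the technical SD. For Pim3 AZD1208 line 2 was the lowest line. AZD1208 line 2 stood nearest to the parental mean for Pim1 (-0.45) and Pim2 (-0.05) and farthest from it for Pim3 (-1.10).

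The comparison of AZD1208 with vehicle lines asks whether recurrence under a PIM inhibitor leaves the cells with other levels of the drug's target genes. Pim1 was at 9.52 ± 0.25 in AZD1208 lines and 9.36 ± 0.47 in vehicle lines (SD, n = 3 each), a log2 difference of 0.17 (SE 0.26, 95% interval -0.45 to 0.78). Pim2 was at 7.88 ± 0.14 in AZD1208 lines and 7.77 ± 0.17 in vehicle lines (SD, n = 3 each), a difference of 0.11 (SE 0.16, interval -0.27 to 0.48). Pim3 was at 9.64 ± 0.22 in AZD1208 lines and 9.81 ± 0.17 in vehicle lines (SD, n = 3 each), a difference of -0.17 (SE 0.18, interval -0.59 to 0.24).

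None of the 3 differences exceeded its SE. The groups overlapped for each gene, where 1.41% of all genes lacked overlap with AZD1208 higher and 1.97% with AZD1208 lower. Taken as folds, the intervals reach 1.71-fold higher and 1.36-fold lower for Pim1, 1.39-fold higher and 1.2-fold lower for Pim2, and 1.18-fold higher and 1.5-fold lower for Pim3 in AZD1208 lines. The difference of Pim1 was -0.08 without vehicle line 1 and 0.39 without vehicle line 2. That of Pim2 was 0.05 without AZD1208 line 2 or without vehicle line 1, 0.18 without AZD1208 line 1 and 0.20 without vehicle line 3. That of Pim3 was -0.05 without AZD1208 line 2 and -0.27 without vehicle line 1. Under array quality weights Pim1 stood at -0.06 and Pim2 at -0.01.

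Set against the parental line one group at a time, with the parental sample shared, Pim1 differed by -0.74 (SE 0.37) in AZD1208 lines and -0.91 (SE 0.37) in vehicle lines. Pim3 differed by -0.85 (SE 0.25) in AZD1208 lines and -0.68 (SE 0.25) in vehicle lines. Pim2 differed by -0.16 (SE 0.23) in AZD1208 lines and -0.27 (SE 0.23) in vehicle lines. Each had an adjusted p of 1 in limma. Lower values at an unadjusted p under 0.05 were seen in AZD1208 lines for Pim3, as for 1.02% of all genes, and in vehicle lines for Pim1 and Pim3, as for 0.386% of all genes. In vehicle lines the level was lost for Pim1 without AZD1208 line 1 (unadjusted p = 0.0574), AZD1208 line 3 (0.0587), vehicle line 1 (0.0679), vehicle line 3 (0.0707) or parental array 1 (0.0558) in limma. In vehicle lines Pim1 also lost the level with arrays centred on their median (0.0565) or the mean of its probe sets (0.053), both in limma. For Pim3 it was lost there without vehicle line 1 (0.0621) or parental array 2 (0.0523). No member had higher values at that level, against 1.6% of all genes in AZD1208 lines and 1.91% in vehicle lines.

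Akt1, the most widely expressed AKT isoform, was at 11.99, 11.76 and 11.97 in AZD1208 lines 1 to 3, at 12.03, 11.95 and 12.18 in vehicle lines 1 to 3, and at 12.15, 12.10 and 12.12 on the parental arrays. Vehicle line 3 was above every parental array and the other 5 lines were below all of them. The recurrent difference was -0.14 (SE 0.20, 95% interval -0.61 to 0.32), and AZD1208 lines differed from vehicle lines by -0.15 (SE 0.15, interval -0.50 to 0.20), or by -0.07 without AZD1208 line 2 and -0.08 without vehicle line 3. Akt1 varied little between the recurrent lines, with an SD of 0.14, and only 14.3% of the genes tested had a smaller one.

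Akt2, the isoform tied to insulin signalling, was at 10.51, 10.61 and 11.0 in AZD1208 lines 1 to 3, at 10.77, 10.77 and 10.88 in vehicle lines 1 to 3, and at 11.04, 10.88 and 11.0 on the parental arrays. The AZD1208 lines spanned the vehicle lines, with an SD of 0.26 against 0.06 (n = 3 each). The recurrent difference was -0.21 (SE 0.23, 95% interval -0.75 to 0.32) and the difference between AZD1208 and vehicle lines -0.10 (SE 0.17, interval -0.51 to 0.30). Without AZD1208 line 3, whose array had the narrowest range of values, the difference between AZD1208 and vehicle lines was -0.25, and without AZD1208 line 1 it was -0.01.

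Akt1s1, which encodes PRAS40, was at 8.41, 8.67 and 8.58 in AZD1208 lines 1 to 3, at 8.82, 8.44 and 8.86 in vehicle lines 1 to 3, and at 8.82, 8.68 and 8.86 on the parental arrays. Vehicle line 2 lay among the AZD1208 values while vehicle lines 1 and 3 stood at the parental level. AZD1208 lines differed from vehicle lines by -0.16 (SE 0.17, 95% interval -0.56 to 0.25), or by -0.29 without vehicle line 2 and -0.08 without AZD1208 line 1 or vehicle line 3. The recurrent difference was -0.15 (SE 0.23). A probe set annotated to both Akt1s1 and Mir707 was left out of the test because it names 2 genes. It read 7.57 ± 0.07 in AZD1208 lines and 7.63 ± 0.13 in vehicle lines (SD, n = 3 each), against 7.52 in the parental line.

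Eif4ebp1, which encodes the translation repressor 4E-BP1, was at 12.04, 11.57 and 12.37 in AZD1208 lines 1 to 3, at 12.03, 12.09 and 12.15 in vehicle lines 1 to 3, and at 12.14, 12.00 and 12.10 on the parental arrays. Among the AZD1208 lines it had both the lowest and the highest value of the 9 arrays, while the vehicle lines and the parental arrays lay between 12.0 and 12.15. Its SD was 0.40 between AZD1208 lines and 0.06 between vehicle lines (n = 3 each). The difference of AZD1208 from vehicle lines was -0.10 (SE 0.22, 95% interval -0.60 to 0.41) and turned to 0.11 without AZD1208 line 2. The recurrent difference was -0.04 (SE 0.29) and turned to 0.07 without that line.

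**Figure D2:**
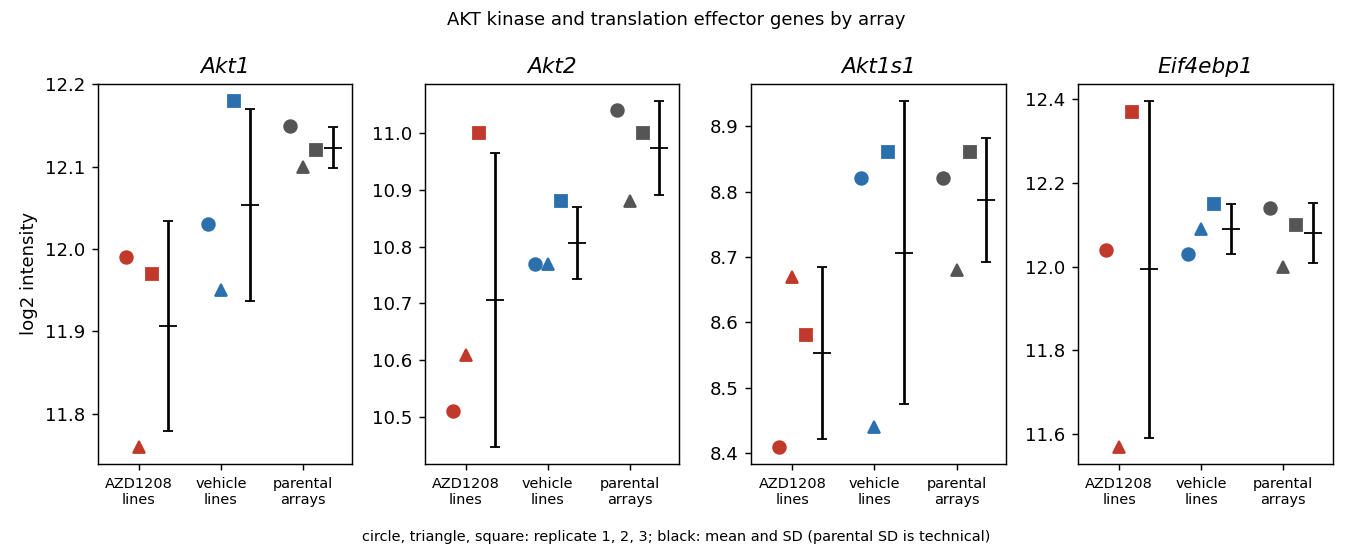
Log2 intensity of Akt1, Akt2, Akt1s1 and Eif4ebp1 on each of the 9 arrays, with colours and symbols for group and replicate number and the mean and SD in black (the parental SD is technical; the vertical axes differ between panels). The AZD1208 lines span 11.57 to 12.37 for Eif4ebp1, where the vehicle lines span 12.03 to 12.15.

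Across the 7 genes no difference passed in limma in any comparison (adjusted p = 1 for each). Over all 15526 genes the share past the adjusted threshold was 0% in limma for AZD1208 against vehicle lines, with 81 genes at an unadjusted p under 0.05, and 0% for recurrent against parental, with 429. No member had groups without overlap between AZD1208 and vehicle lines, which 1.41% of all genes did with AZD1208 higher and 1.97% with AZD1208 lower. A two-sided exact permutation test of AZD1208 against vehicle lines gave p between 0.3 and 0.8 for the 7 genes, where the smallest possible value is 0.1. All 6 lines lay below the parental mean for 3 of the 7 genes, the PIM genes, and for 10.8% of all genes. They lay below every parental array for 2 of the 7, Pim1 and Pim3, and for 5.06% of all genes. The same 2 had an unadjusted p under 0.05 for lower values in recurrent lines, as did 0.747% of all genes. For Pim1 that level was lost without AZD1208 line 1 (unadjusted p = 0.0779), AZD1208 line 3 (0.0758), vehicle line 3 (0.0703) or parental array 1 (0.0633), and with arrays centred on their median (0.0592), the lowest 50% of genes left out (0.0507) or the mean of its probe sets (0.061), all in limma. For Pim3 the unadjusted p stayed between 0.00575 and 0.0236 with single arrays left out. Of all genes, 1% had a difference below that of Pim3 and 0.8% one below that of Pim1. In bulk RNA a lower value can mean fewer cells with the transcript or less of it per cell, and these cannot be told apart.

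**Figure D3:**
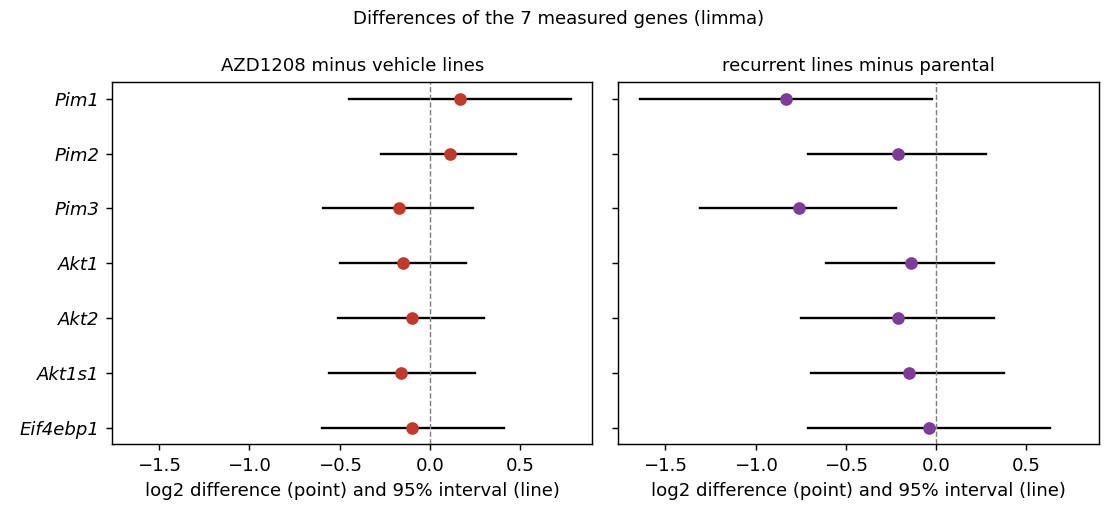
Log2 difference and 95% interval from limma for the 7 measured genes, for AZD1208 minus vehicle lines on the left and recurrent lines minus parental on the right. On the left every interval spans 0, and on the right those of Pim1 (-1.64 to -0.02) and Pim3 (-1.31 to -0.22) lie below it before adjustment.

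The genes whose pattern over the 7 samples was most like that of each PIM gene were found by the root mean square difference of centred log2 values. As the nearest of 15525 genes, they lie under the median gene by selection. For Pim1 these were Gadd45b (0.13), a stress-induced gene, Fez2 (0.16) and Idh3a (0.16), a subunit of mitochondrial isocitrate dehydrogenase, where the median gene stood at 0.46. Gadd45b was at 10.14 in AZD1208 lines, 9.83 in vehicle lines and 10.61 in the parental line. With the mean of both Pim1 probe sets the nearest were instead Pimreg, Pif1 and Coro1b (0.06 each). For Pim3 they were 9930012K11Rik, Rcc2, a regulator of mitosis, and the linker histone gene H1f3 (0.07 each, against a median of 0.35). For Pim2 they were Afap1l1 (0.04), Tbc1d25 (0.05) and Smarcd1 (0.06), against a median of 0.24. Within the family the distance was 0.34 between Pim1 and Pim2, 0.35 between Pim1 and Pim3 and 0.30 between Pim2 and Pim3. Pim2 stood nearer to Akt1 (0.19), Akt2 (0.17) and Akt1s1 (0.17) than to the other PIM genes.

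Upstream of Pim transcription, 11 of 15 listed JAK and STAT genes were tested. In recurrent lines 4 were higher and 7 lower than in the parental line, with a median difference of -0.05, against -0.02 over all genes. Stat5b, a STAT factor known to induce Pim1 downstream of cytokines, was at 9.58, 9.29 and 9.16 in AZD1208 lines, at 9.39, 9.28 and 9.57 in vehicle lines and at 10.02 in the parental line. That is 1.56-fold lower in recurrent lines (-0.64, SE 0.23; limma, adjusted p = 1), and it was the only member of the list at an unadjusted p under 0.05. Of all genes, 0.747% had an unadjusted p under 0.05 in limma for lower values and 2.02% for higher values. Socs3, a feedback inhibitor induced by STAT3, had a difference of -0.51 (SE 0.34), and no line reached its parental mean, as for 10.8% of all genes. Il6st, the shared receptor subunit of the interleukin-6 family, had a difference of 0.80 (SE 0.48), and its parental mean was the lowest value, as for 11.8% of all genes. Other listed genes, Stat5a, Cish and Socs2, differed by 0.16, 0.39 and -0.05. The part of these genes in the PIM values was not tested.

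Of 21 listed regulators of PI3K and AKT, 18 were tested. In recurrent lines 10 were higher and 8 lower, with a median of 0.11. The insulin receptor substrate Irs2 was above the parental value of 8.31 in all 6 lines, as were 11.8% of all genes. It was at 8.61, 8.65 and 8.66 in AZD1208 lines and 8.53, 8.55 and 8.81 in vehicle lines (difference 0.33, SE 0.19), and it is also on the list of FOXO targets. Pik3ca, the catalytic subunit of PI3K alpha, differed by 0.58 (SE 0.34). In AZD1208 against vehicle lines 7 were higher and 11 lower, with a median of -0.09. Groups overlapped for every gene of the list. Over all genes, 1.41% lacked overlap with AZD1208 higher and 1.97% with AZD1208 lower.

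The list of mTOR complexes and their regulators had 32 genes tested, 18 higher and 14 lower in recurrent lines, with a median of 0.12. Its members of smallest p were inhibitors of mTORC1. Sesn3, a sestrin, was at 8.94, 8.78 and 8.59 in AZD1208 lines, at 9.50, 8.72 and 9.24 in vehicle lines and at 7.72 in the parental line, 2.36-fold higher in recurrent lines (1.24, SE 0.30). Ddit4, the stress-induced gene of REDD1, was at 9.54, 9.21 and 9.15 in AZD1208 lines, at 10.08, 9.38 and 9.25 in vehicle lines and at 8.31 in the parental line, 2.18-fold higher (1.13, SE 0.33). Tbc1d7, a subunit of the TSC complex that holds mTORC1 in check, was 1.8-fold lower (-0.85, SE 0.29). None of the 3 passed (limma, adjusted p = 1 for each).

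Between AZD1208 and vehicle lines 11 mTOR genes were higher and 21 lower, with a median of -0.08. Groups did not overlap for Tsc2, a subunit of the TSC complex, at 10.36, 10.58 and 10.28 in AZD1208 lines and 10.22, 10.18 and 10.24 in vehicle lines. They did not overlap for Mtor, the kinase itself, at 9.29, 9.25 and 9.22 in AZD1208 lines and 9.47, 9.37 and 9.54 in vehicle lines. The last of the 3 was Mapkap1 (-0.12), a subunit of mTORC2, named after its values were seen. The differences of 0.20 (SE 0.15) for Tsc2 and -0.21 (SE 0.14) for Mtor had an adjusted p of 1 in limma, and 3 of 32 genes without overlap can be read against the 1.41% and 1.97% of all genes given above.

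Among genes of translation initiation and elongation, 21 were tested, with 5 higher and 16 lower in recurrent lines (median -0.06), where 54.5% of all genes were lower. In AZD1208 against vehicle lines 5 were higher and 16 lower (median -0.06), where 45.2% of all genes were higher and 54.8% lower. Eif4e, the cap-binding protein that 4E-BP1 holds, was at 11.03, 10.91 and 10.73 in AZD1208 lines, at 11.05, 11.12 and 11.15 in vehicle lines and at 11.18 in the parental line. It was the only gene of the list without overlap between AZD1208 and vehicle lines (-0.21, SE 0.15; limma, adjusted p = 1). Over all genes, groups were without overlap for 1.41% with AZD1208 higher and for 1.97% with AZD1208 lower. Rps6kb2, the gene of the other S6 kinase, was at 8.90, 8.93 and 9.04 in AZD1208 lines, at 9.0, 9.31 and 9.45 in vehicle lines and at 9.55 in the parental line. It differed by -0.30 (SE 0.17) between AZD1208 and vehicle lines and by -0.45 (SE 0.22) between recurrent and parental. For the RSK and SGK kinases, relatives that read similar sites, 4 of 9 genes were tested, 2 higher and 2 lower in recurrent lines.

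Of 21 listed substrates of PIM or AKT kinases, 18 were tested, with 11 higher and 7 lower in recurrent lines (median 0.06). Foxo1, a transcription factor kept out of the nucleus by AKT, was at 8.84, 9.26 and 8.83 in AZD1208 lines, at 9.25, 8.84 and 9.24 in vehicle lines and at 8.35 in the parental line (0.70, SE 0.26). Foxo3 was at 8.52, 8.55 and 8.76 in AZD1208 lines, at 8.47, 8.64 and 8.75 in vehicle lines and at 8.17 in the parental line (0.45, SE 0.20). All 6 lines were above every parental array for both, as for 6.94% of all genes, and neither passed (limma, adjusted p = 1). Cdkn1a, the cell cycle inhibitor p21 whose location in the cell PIM and AKT control, had the smallest p of the list between AZD1208 and vehicle lines (-0.52, SE 0.23; limma, adjusted p = 1).

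Target genes of FOXO factors, which AKT holds down, were mostly at higher values in recurrent lines. AKT activity was not measured, and the list was chosen with earlier results of these data known. Of 18 tested, 16 were higher and 2 lower, where 45.5% of all genes were higher, and the list median was 0.52 against -0.02 over all genes. The 16 include Cat, at a difference of 0.00, and Cdkn1b, at 0.10. All 6 lines were above the parental mean for 12 of the 18, as for 11.8% of all genes. For higher values 9 of the 18 had an unadjusted p under 0.05, as did 2.02% of all genes. Without AZD1208 line 2 the median was 0.46, 15 were higher and 8 had an unadjusted p under 0.05 for higher values. No target passed the adjusted threshold (limma, adjusted p = 1 for those of smallest p).

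Pink1, a kinase of mitochondrial quality control, was at 8.43, 8.11 and 7.93 in AZD1208 lines, at 8.56, 8.02 and 8.05 in vehicle lines and at 7.11 in the parental line, 2.11-fold higher (1.07, SE 0.28). Btg1, an anti-proliferative gene, was at 9.86, 10.21 and 10.13 in AZD1208 lines, at 9.62, 10.16 and 9.86 in vehicle lines and at 9.03 in the parental line, 1.91-fold higher (0.94, SE 0.25). Sesn3 is also on this list, with the values given above. Pdk4, an inhibitor of pyruvate dehydrogenase, was at 9.49, 9.98 and 9.16 in AZD1208 lines, 9.80, 10.06 and 9.86 in vehicle lines and 10.68 in the parental line, 1.94-fold lower (-0.95, SE 0.30).

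The list's median relative to the parental line was 0.33, 0.73 and 0.43 in AZD1208 lines 1 to 3 and 0.46, 0.53 and 0.59 in vehicle lines 1 to 3. AZD1208 and vehicle lines overlapped for every gene of the list. Over all genes, 1.41% lacked overlap with AZD1208 higher and 1.97% with AZD1208 lower. Between AZD1208 and vehicle lines 5 of the 18 were higher and 13 lower, with a median of -0.10. Igf1r, a growth factor receptor, differed by -0.39 (SE 0.21) and Bcl6, a transcriptional repressor, by -0.41 (SE 0.30) there, with adjusted p of 1 in limma.

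Cell type markers were read beside these values. Of 7 epithelial markers tested 2 were higher and 5 lower in recurrent lines, and their mean level was 8.53, 8.25 and 8.43 in AZD1208 lines 1 to 3, 8.10, 8.68 and 8.43 in vehicle lines 1 to 3 and 8.74 in the parental line. Krt19, a keratin, had the largest difference among them (-1.52, SE 0.23; limma, adjusted p = 0.682). Of 9 fibroblast markers tested 4 were higher and 5 lower in recurrent lines, with a median difference of -0.08. Their mean level was 7.66, 8.50 and 7.68 in AZD1208 lines 1 to 3, 8.08, 7.87 and 7.66 in vehicle lines 1 to 3 and 7.17 in the parental line. The FOXO list was likewise highest in AZD1208 line 2. Postn, Pdgfra and Fbln2 were above the parental mean in all 6 lines and had an unadjusted p under 0.05 (limma, adjusted p = 1 for each). Of all genes, 11.8% were above the parental mean in all 6 lines and 2.02% had such a p for higher values. Postn, a matrix gene, was at 8.58, 12.72 and 8.16 in AZD1208 lines, 9.30, 10.53 and 7.86 in vehicle lines and 5.36 in the parental line. Pdgfra, a growth factor receptor, was at 9.27, 9.84 and 8.24 in AZD1208 lines, 10.03, 9.06 and 8.47 in vehicle lines and 7.47 in the parental line. Fbln2, a matrix gene, was at 7.96, 8.18 and 7.93 in AZD1208 lines, 9.36, 8.80 and 7.96 in vehicle lines and 7.20 in the parental line. AZD1208 line 2 stood apart for Pdgfrb, at 9.78 against 6.49 to 7.22 in the other lines and 6.85 in the parental line. It was also the highest for Dcn, a gene under the filter on low values, at 6.68 against 5.30 to 5.83 in the other lines and 5.37 in the parental line. In recurrent lines the collagen genes Col1a1, Col1a2 and Col3a1 differed from the parental line by -0.08, -0.18 and -0.09. Thy1 differed by -0.21 and Twist2 by -0.36, and Lum was under the filter. Leukocyte markers averaged 6.37 to 6.78 in recurrent lines, against 6.52 for parental cells (4 of 7 higher), and endothelial markers 6.31 to 6.60 in recurrent lines, against 6.57 for parental cells (0 of 5 higher). The part of these markers in the PIM and FOXO target values was not tested.

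**Figure D4:**
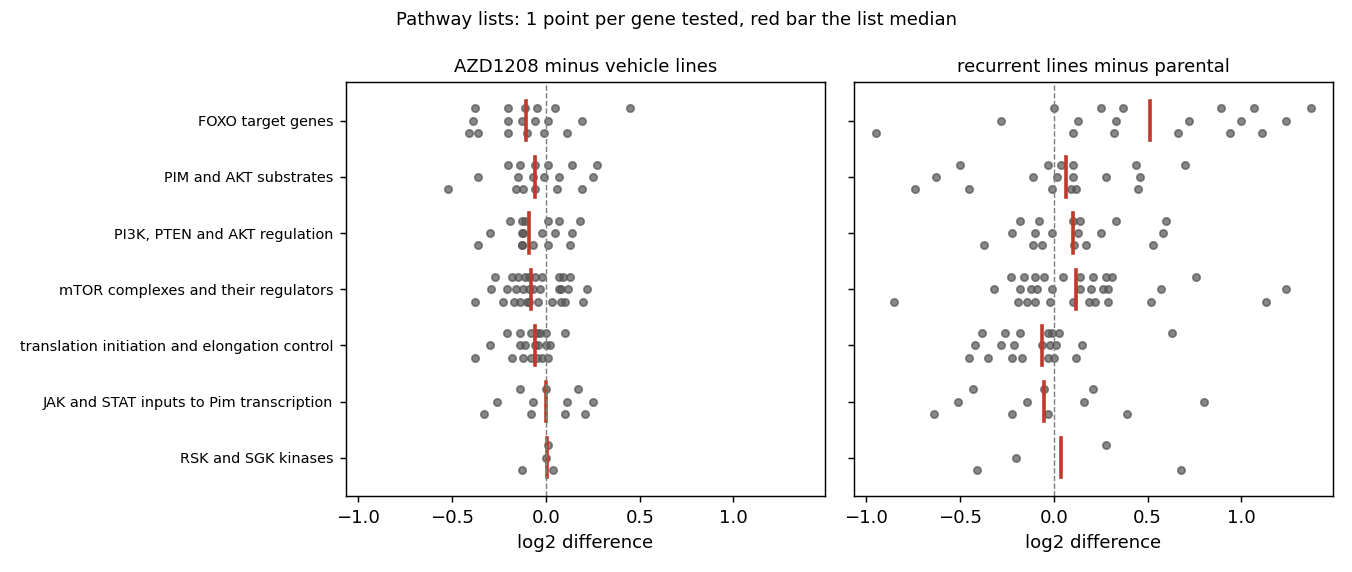
Log2 difference of each tested gene in 7 lists around the PIM and AKT kinases, 1 point per gene with the list median in red, for AZD1208 minus vehicle lines on the left and recurrent lines minus parental on the right. The FOXO target list has its median at 0.52 on the right and -0.10 on the left, while the medians of the other lists lie between -0.09 and 0.12.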

How the data were processed

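The authors deposited log2 intensities (1.94 to 14.4) for every probe set on 9 arrays. The submitters' processing notes name oligo; the sources used here give neither its version nor the background correction, normalization or genome build. No detection calls were used, and precision is limited by the number of arrays. Names came from the platform annotation through Entrez identifiers and a RefSeq table of GRCm38.p6: of 41345 probe sets, 23521 had 1 symbol, 1814 several, and 16010 are unnamed here. The probe set with the highest mean stood for a gene, and genes in the lowest 30% by mean were dropped (lowest mean kept 5.81).

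The 3 technical parental arrays were averaged, and 7 samples were fitted by group in limma 3.58.1 (lmFit, eBayes; R 4.3.3; 4 residual and 3.36 prior degrees of freedom), Benjamini-Hochberg adjusted over 15526 genes at 0.05. The lone parental sample is assumed to vary like the lines. P-values measure only the spread between these samples, which may be technical. The procedure was tested on simulated data.

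The members and lists were chosen with earlier results of these data known. All members were named, with up to 4 genes a list by smallest p in either comparison and the 3 genes most like each PIM gene. AZD1208 and vehicle lines share replicate numbers, which no label explains. Deviations from group means correlated across genes at 0.146, 0.118 and 0.532 for numbers 1, 2 and 3, and at -0.484 to 0.264 for unlike numbers. Each same-numbered pair was above 0.1, so a fit with the number as a block was run, with alternatives of scaling, filtering, probe sets, array weights and samples left out.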

Additional observations from a re-analysis of the deposited data

How the results depend on the processing

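No member passed the adjusted threshold under any alternative except Pim3 for recurrent against parental with the technical parental arrays counted as 3 samples (-0.76, adjusted p = 0.0491, limma). That setting, which by construction takes technical spread for biological spread, passed 156 genes for recurrent against parental, 53 for vehicle against parental and 41 for AZD1208 against parental, where the main analysis passed 0. Array quality weights passed 1 gene for recurrent and 2 for AZD1208 against parental, and turned AZD1208 against vehicle to -0.06 for Pim1 and -0.01 for Pim2. With the replicate block no call changed, and Pim1 was at 0.17 (SE 0.17), Pim2 at 0.11 (SE 0.15) and Pim3 at -0.17 (SE 0.18). With single samples left out, AZD1208 against vehicle lay between -0.08 and 0.39 for Pim1 and between -0.29 and 0.11 for Eif4ebp1. Eif4ebp1 lay between -0.13 and 0.07 for recurrent, between -0.28 and 0.12 for AZD1208 and between -0.03 and 0.04 for vehicle against parental. Akt1s1 lay between -0.15 and 0.06 (without vehicle line 2) for vehicle against parental, and the number of genes passing for AZD1208 against parental between 0 and 1 (without vehicle line 1). The recurrent differences of Pim1 (-0.94 to -0.70 without single samples) and Pim3 (-0.89 to -0.66) kept their sign. Eif4ebp1 turned without AZD1208 line 2, and for vehicle against parental without vehicle line 3 (-0.02) or parental array 2. The cause of the turned signs was not tested. The recomputation of the FOXO target list was chosen after seeing the data. The list median was 0.66 with the lowest 50% of genes left out, and 8 to 12 members had an unadjusted p under 0.05 for higher values across all settings. The number of arrays limits what can be detected.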
